A study of Mus musculus with 2 samples.

Results

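MHC class II pathway transcripts were 8 genes listed by their role in antigen presentation, H2-Aa, H2-Ab1, H2-Eb1, Cd74, Ciita, H2-DMa, H2-DMb2 and H2-Ob, out of 7299 genes with a crosslink of Tia1 in a 3′UTR. All 8 had at least 1 such crosslink in the authors' pooled list. Crosslinks were mapped by iCLIP, a form of crosslinking and immunoprecipitation with single-nucleotide resolution in which each unique cDNA marks a nucleotide that was bound by the protein. Both samples, replicates 1 and 2 of 1 group, were cytoplasmic extracts of primary splenic B cells from C57BL/6 mice after 48 h of culture with 10 µg/ml of the bacterial mitogen lipopolysaccharide (LPS). No untreated or isotype sample was analysed here, so background binding was not measured and no condition could be compared. The titles of the samples name Tia1, whereas their antibody field names an antibody raised against its relative Tial1 and the study's methods give one against Tia1. The precipitated protein is called Tia1 after the titles, a point not settled here.

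MHC class II molecules are pairs of an alpha and a beta chain that carry peptides from endocytosed antigen to the surface of B cells, dendritic cells and macrophages, where helper T cells read them. The invariant chain Cd74 fills the peptide groove during assembly, the DM dimer later exchanges its remnant for antigen peptide, the DO dimer restrains DM in B cells, and the transactivator Ciita switches on the genes of the pathway. C57BL/6 mice carry a defective Ea gene, so that the product of H2-Eb1 lacks its usual alpha chain partner. Tia1 binds RNA, favours U-rich sequence in 3′UTRs and gathers in stress granules, where mRNAs that are not translated collect.

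Replicate 1 held 639108 cDNAs at 342732 sites that passed a false discovery rate (FDR) filter, and replicate 2 held 165081 cDNAs at 93512 sites. The counts of a replicate are those at sites called in that replicate, so that a 0 means no called site and not the absence of cDNAs. The label of the cells was checked on fixed lists of marker genes. All 8 B cell markers had 3′UTR cDNAs in the pooled list and 7 in both replicates, with sums of 3686 in replicate 1 and 903 in replicate 2. Pax5 (1475 and 301), Ebf1 (1107 and 324) and Ms4a1 (778 and 200) led them, and Cd79a was lowest at 8 and 0. Of 12 markers of myeloid and dendritic cells, which also carry class II, 4 had any, with sums of 88 and 14. Flt3 led them with 59 and 8 cDNAs, Itgam had 17 and 4, Lyz2 had 12 and 2, and Adgre1 had 2 in the pooled list alone. Itgax, Csf1r, Cd68, Zbtb46, Xcr1, Clec9a, Siglech and Cd209a were at 0. Of 8 T cell markers, Trac (10 and 0) and Cd3e (4 and 0) had cDNAs. The labels state that the B cells had been purified with an isolation kit. A part of other cells in the class II counts was not tested. Fewer cells of a type and less RNA per cell cannot be told apart in these extracts, and transcript abundance was not measured in the series.

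The windows below show where Tia1 was crosslinked most on 7 of the 8 transcripts, and no sequence is printed for Cd74. Each is 29 nt of GRCm38 (RefSeq) read 5′ to 3′ along the transcript, centred on the site with the most pooled cDNAs, and the capital letter is that crosslinked nucleotide.
H2-Aa, chr17:34282825-34282853, minus strand: gaucugaauuuuguUuucugucaucuucc
H2-Ab1, chr17:34269329-34269357, plus strand: caggcuuucugucuUcgaucuguaguaaa
H2-Eb1, chr17:34316152-34316180, plus strand: gucauaugcuuuuuUacauuuuucucaaa
H2-Eb1, next window, chr17:34316095-34316123, plus strand: aucuccuguccccuUuugucccuugccuu
Ciita, chr16:10526457-10526485, plus strand: caucuggggacaucUucugccccaucuaa
H2-DMa, chr17:34139038-34139066, plus strand: uuauaccuucccucUuccaggaaauaaac
H2-DMb2, chr17:34151127-34151155, plus strand: cuccugaggauuccUucaugcccccaaua
H2-Ob, chr17:34245403-34245431, plus strand: uagaagauauuucuUauuaaccuuuuauu

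These windows lay in 3′UTRs and the crosslinked nucleotide was U in each of the 8. They differed in how much U surrounded it. U made up 51.7% of the H2-Aa, H2-Eb1 and H2-Ob windows, 37.9% of that of H2-Ab1, 9 of 29 nt of that of H2-DMa and 27.6% of those of H2-DMb2 and Ciita. The H2-Eb1 window held all 3 occurrences of UUUUU in its 310 nt 3′UTR. The windows of H2-DMb2 and H2-Ob held 0 of the 11 and 4 occurrences in their 3′UTRs. The 3′UTRs of the H2-Aa, H2-Ab1, Ciita and H2-DMa transcripts used had no UUUUU, so their windows could hold none.

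The first question was how the alpha chain, the beta chains, the invariant chain and the transactivator compared in their level of crosslinking. H2-Aa, which encodes the alpha chain of the I-A molecule, had 749 3′UTR cDNAs in replicate 1. Replicate 2 added 138. Of the beta chains, H2-Eb1 had 731 and 474, and H2-Ab1, the partner of H2-Aa in I-A, had 188 and 73. Cd74 had 384 and 109 cDNAs. These 4 genes were covered in both libraries, whereas Ciita had 20 cDNAs in replicate 1 and 0 in replicate 2. For peptide exchange, the DM alpha chain gene H2-DMa had 0 and 4 and the DM beta chain gene H2-DMb2 had 52 and 14. H2-Ob, the beta chain of DO, had 304 and 60.

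A 3′UTR site in both replicates was found for 6 of the 8 genes, against 58.7% of the 7882 genes with a pooled site in an untranslated region or the coding sequence (CDS). The exceptions were Ciita, called in replicate 1 alone, and H2-DMa, called in replicate 2 alone. At least 50 3′UTR cDNAs in each replicate were reached by H2-Aa, H2-Ab1, H2-Eb1, Cd74 and H2-Ob, 5 of 8, against 8.20% of the same 7882 genes. The 8 genes together held 0.484% of all 3′UTR cDNAs in replicate 1 and 0.652% in replicate 2. These comparisons are descriptions, because the members were chosen with earlier results of these data known.

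Since a long 3′UTR can collect more crosslinks, levels were compared between genes per kb of annotated 3′UTR and per 100000 3′UTR cDNAs of the library. A level is a count of crosslinks and not a strength of binding, because transcript abundance was not measured in the series. On this scale H2-Aa (303 nt) stood at 493 in replicate 1 and 341 in replicate 2, a mean of 417 ± 108 (SD, n = 2). H2-Eb1 (785 nt) stood at 186 and 452, a mean of 319 ± 188, and H2-Ab1 (314 nt) at 119 and 174, a mean of 147 ± 38.5. The ranges of H2-Aa and H2-Eb1 overlapped, so these genes did not differ beyond their spread. Cd74 (493 nt) was even between replicates, at 155 and 165, a mean of 160 ± 7.09, and overlapped H2-Ab1.

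A step followed below these 4 genes. H2-DMb2 (463 nt) reached 22.4 and 22.6, a mean of 22.5 ± 0.154, and H2-Ob (2504 nt) 24.2 and 17.9, a mean of 21.1 ± 4.45, without separating from each other. The large count of H2-Ob was thus spread over a long 3′UTR. Ciita (4026 nt) at 0.991 and 0 and H2-DMa (1293 nt) at 0 and 2.31 came last and overlapped.

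In the pooled list, H2-Aa ranked 17 of 7299 genes per kb, H2-Eb1 39, Cd74 62 and H2-Ab1 80. H2-Ob ranked 883, H2-DMb2 915, Ciita 5443 and H2-DMa 5841, so the members ranged from the top of all genes to below the median. The median of the 8 genes was 495 pooled cDNAs per kb, against 21.5 over all 7299 genes. Ranks and medians were not corrected for transcript abundance.

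**Figure D1:**
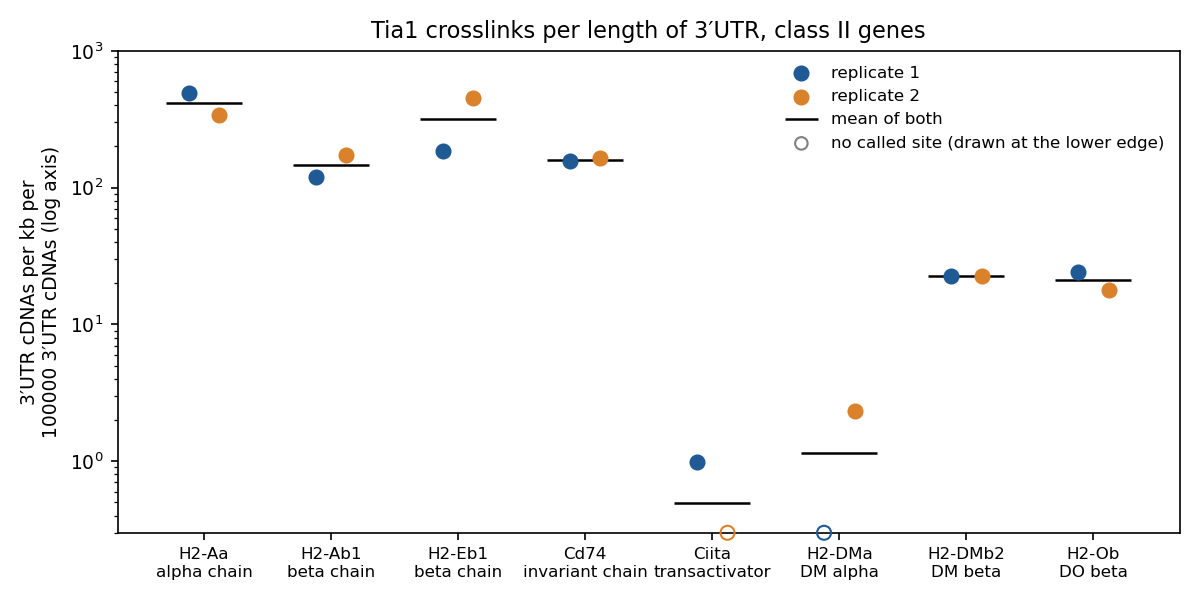
3′UTR cDNAs per kb of annotated 3′UTR and per 100000 3′UTR cDNAs of the library (log axis) for each class II gene, with replicate 1 in blue, replicate 2 in orange and the mean as a line. H2-Aa, H2-Eb1, Cd74 and H2-Ab1 lie between 119 and 493, H2-DMb2 and H2-Ob between 17.9 and 24.2, and the open circles mark Ciita in replicate 2 and H2-DMa in replicate 1, which had no called site.

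The alpha chain H2-Aa exceeded its beta chain H2-Ab1 per kb by 3.50-fold in the pooled list, 4.13-fold in replicate 1 and 1.96-fold in replicate 2. It exceeded Cd74 by 2.86-fold, 3.17-fold and 2.06-fold. Both differences kept their direction in each replicate, although their size fell in replicate 2. Over H2-Eb1 the pooled ratio of H2-Aa was 1.91, with 2.65 in replicate 1 and 0.754 in replicate 2. This order was not settled, because it also turned with the length used. With the 3′UTR of the transcript that held most cDNAs, 310 nt for H2-Eb1 and 282 nt for H2-Aa, the pooled ratio was 0.809. It was 0.890 for all crosslinks between the outermost sites without the FDR filter.

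The second question was where along each 3′UTR the crosslinks lay. Sites no more than 15 nt apart were joined into clusters, and positions are counted in nt from the start of the 3′UTR of the transcript with most cDNAs. On H2-Aa, H2-Ab1 and H2-Eb1 a single cluster held most of the cDNAs. Dense sites join readily under this rule, so the number of clusters also depends on a gene's counts and 3′UTR length. In H2-Aa it ran from nt 77 to 261 of 282 (chr17:34282786-34282970) with 737 cDNAs in replicate 1 and all 138 in replicate 2. In H2-Ab1 it ran from nt 170 to 275 of 305 (chr17:34269275-34269380) with 165 (87.8%, exact 95% interval 82.2 to 92.1) and all 73. In H2-Eb1 it ran from nt 198 to 291 of 310 (chr17:34316087-34316180) with 696 (95.2%, 93.4 to 96.6) and all 474.

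Both beta chain clusters thus lay toward the end of the 3′UTR, while that of H2-Aa covered most of its length. The next clusters of these 3 genes were small and had no called site in replicate 2. They held 12 cDNAs of replicate 1 in H2-Aa (nt 27 to 38), 15 in H2-Ab1 (nt 3 to 17) and 24 in H2-Eb1 (nt 5 to 41).

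Within the H2-Eb1 cluster the weight moved between the replicates. The window around nt 277, with UUUUU, held 386 cDNAs of replicate 1, or 52.8% (exact 95% interval 49.1 to 56.5), and 373 of replicate 2, or 78.7% (74.7 to 82.3). The next window, around nt 220 and 57 nt upstream, held 185 (25.3%, 22.2 to 28.6) and 67 (14.1%, 11.1 to 17.6). The first exceeded the second by 2.09-fold in replicate 1 and 5.57-fold in replicate 2, and the intervals cover counting error only. The strongest site of the gene, at nt 277, had 28 and 51 cDNAs, so that it was higher in the shallower library.

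In H2-Aa the printed window around nt 208 took 264 cDNAs in replicate 1 (35.2%) and 46 in replicate 2 (33.3%), with 42 and 7 at the single strongest site. A window around nt 106 took 164 (21.9%, exact 95% interval 19.0 to 25.0) and 45 (32.6%, 24.9 to 41.1), whose intervals just overlapped. In H2-Ab1 the window around nt 238 took 110 (58.5%) and 55 (75.3%), with 18 cDNAs at the strongest site in each library. Its exact 95% intervals, 51.1 to 65.6 and 63.9 to 84.7, overlapped.

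Cd74 had its crosslinks at both ends of a 487 nt 3′UTR. The cluster from nt 40 to 146 held 231 cDNAs of replicate 1, or 60.2% (exact 95% interval 55.1 to 65.1), and 79 of replicate 2, or 72.5% (63.1 to 80.6). The cluster from nt 359 to 476 held 120 (31.3%) and 26 (23.9%). Both replicates thus had the proximal cluster as the larger. The 29 nt around its strongest site, at nt 65, took 170 cDNAs of replicate 1, or 44.3% (39.2 to 49.4), and 71 of replicate 2, or 65.1% (55.4 to 74.0), so that the weight moved here as well. The site itself had 24 and 14 cDNAs.

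H2-DMb2 also had a proximal cluster, at nt 15 to 124 of 457 (chr17:34151107-34151216), with 40 of 52 cDNAs in replicate 1 and all 14 in replicate 2. Its next cluster, at nt 331 to 359, had 6 and 0, and its strongest site 7 and 1. H2-Ob was covered by 17 clusters, 8 of them seen in both replicates. The largest were neighbours, at nt 1365 to 1467 (chr17:34245483-34245585) with 92 and 15 cDNAs and at nt 1274 to 1349 (chr17:34245392-34245467) with 66 and 18. The strongest H2-Ob site had 4 and 5 cDNAs, so the gene was bound broadly with no dominant site.

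On Ciita the cDNAs fell into 6 clusters, of which the largest (chr16:10526463-10526475) held 8 cDNAs of replicate 1 and the next, at nt 507 to 516, held 3. Its strongest site had 6 and 0. On H2-DMa a single cluster (chr17:34139039-34139053) held the 4 cDNAs of replicate 2, with 2 at its strongest site. Over the 8 genes the strongest cluster of each gene held 82.9% of the pooled 3′UTR cDNAs.

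**Figure D2:**
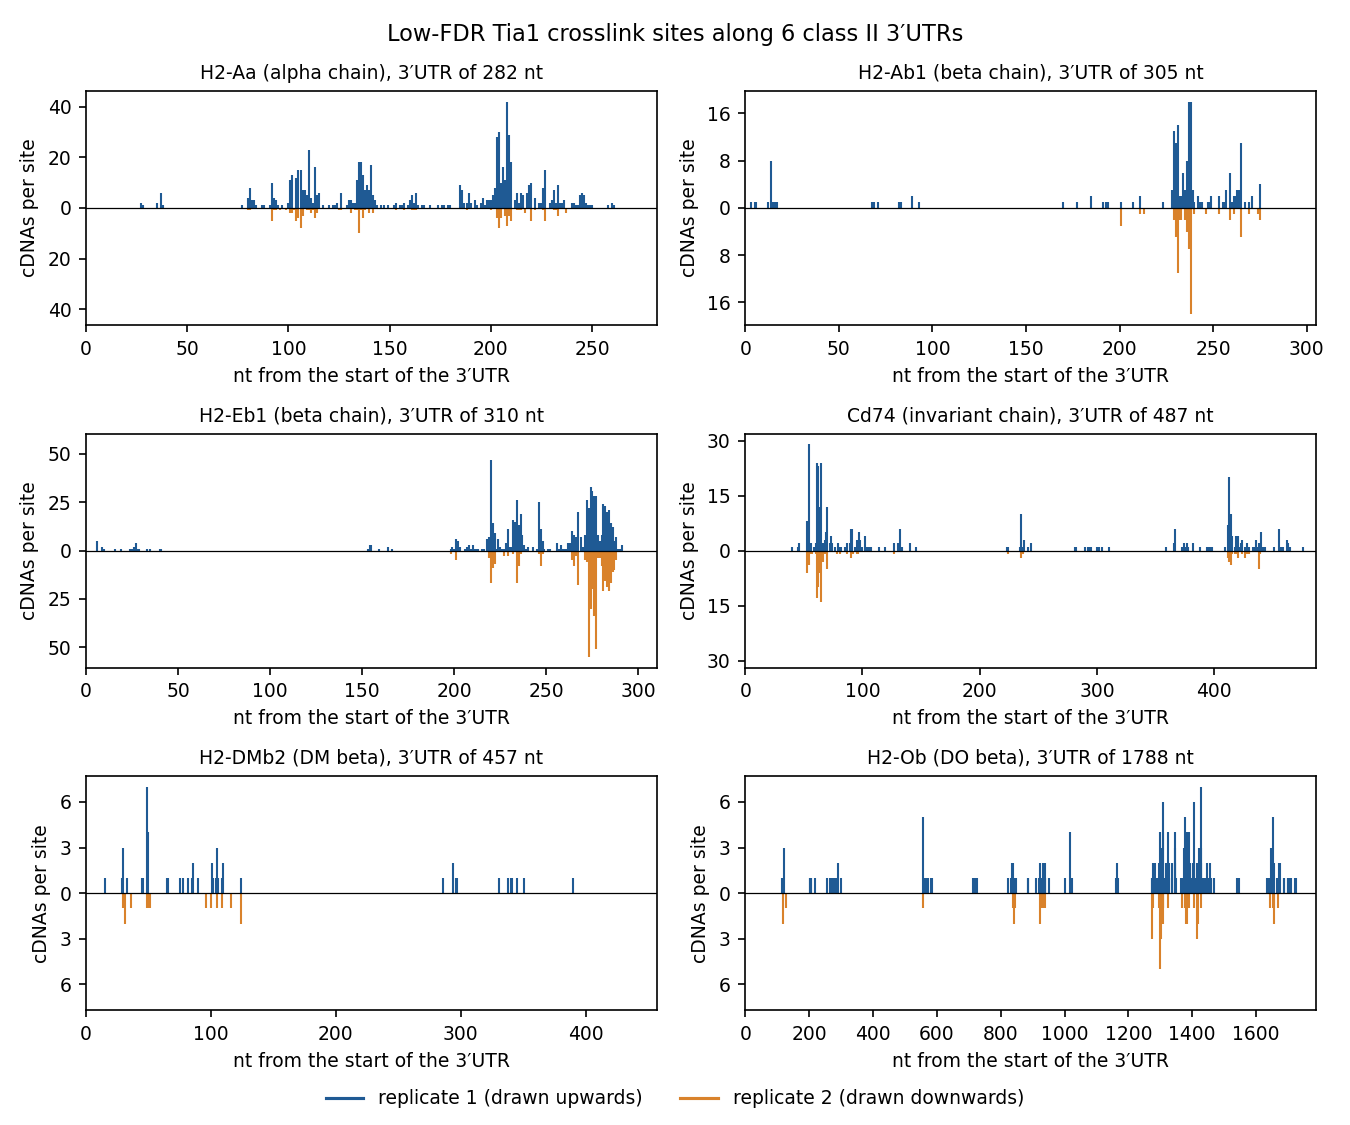
Unique cDNAs per crosslinked nucleotide (vertical axis) against the distance in nt from the start of the 3′UTR (horizontal axis) for 6 class II genes, with replicate 1 drawn upwards and replicate 2 downwards on the same scale. H2-Ab1 and H2-Eb1 rise near the end of the 3′UTR, Cd74 has clusters at nt 40 to 146 and nt 359 to 476, and H2-Ob is covered at many places, with 342 of its 384 pooled cDNAs on the 3′UTR drawn.

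The polyadenylation signal AAUAAA, read on the transcript strand, was found in the last 50 nt of the 3′UTR in all 8 transcripts, and in 53.9% of 42972 annotated coding transcripts with a 3′UTR at least as long. Its last copy began 12 nt from the end in H2-Aa and 41 nt from the end in H2-DMa, the nearest and the farthest. The H2-Eb1 cluster ended at nt 291, where the signal began at nt 290. The H2-Ab1 cluster ended at nt 275 and its signal began at nt 284. In H2-DMb2 the cluster ended at nt 124, far from the signal at nt 432, so that crosslinks close to the signal were not shared by all members. The match is one of letters and says nothing of use of the signal.

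The third question was which parts of the transcripts were bound. Over the 8 genes the 3′UTR held 2428 of the 2961 cDNAs of replicate 1, or 82.0% (exact 95% interval 80.6 to 83.4), and 872 of the 891 of replicate 2, or 97.9% (96.7 to 98.7), a mean of 89.9% ± 11.2 (SD, n = 2). The CDS held 374 (12.6%) and 8 (0.898%). Of all low-FDR cDNAs, also those outside genes, the CDS took 6.67% in the first library and 3.38% in the second. The CDS share of the class II genes was above this value in replicate 1 and below it in replicate 2. The bases differ, since the class II share counts only cDNAs within the 8 genes.

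H2-Eb1 and H2-Aa carried most of these CDS cDNAs. H2-Eb1 had 171 in replicate 1 (18.8% of its cDNAs) and 0 of 474 in replicate 2, whose exact 95% interval reached 0.775%. H2-Aa had 141 (15.8%, 13.4 to 18.3) and 5 of 143 (3.50%, 1.14 to 7.97). In replicate 1 they ranked 17 and 23 of the 2804 genes with a CDS cDNA. Among the 41 genes with at least 100 CDS cDNAs in replicate 1, 3 (7.32%) had no called CDS site in replicate 2.

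The CDS crosslinks of H2-Eb1 and H2-Aa were thin. Their strongest CDS windows held less U than the printed 3′UTR windows of the same genes. The strongest CDS site of H2-Eb1 had 7 cDNAs in replicate 1 and that of H2-Aa had 8, both with 0 in replicate 2, and their windows held 34.5% and 27.6% U. They are shown for comparison, with the crosslinked nucleotide again in capitals.
H2-Eb1 CDS, chr17:34309584-34309612, plus strand: uccacagcaugguuUuuggaauacuguaa
H2-Aa CDS, chr17:34283615-34283643, minus strand: cugacgaugacauuUaugacugcaaggug

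Site calling in the shallower library could lose thin sites, and this was measured at the nucleotides called in replicate 1, where the pooled count minus that of replicate 1 gives the cDNAs of replicate 2 whether or not they were called. For the CDS of H2-Eb1 this gave 6 cDNAs beside the 171 of replicate 1, a replicate 2 share of 3.39% (exact 95% interval 1.25 to 7.23). For the CDS of H2-Aa it gave 12 beside 141, a share of 7.84% (4.12 to 13.3), and over all genes the CDS share was 10.7%. In the 3′UTR the same measure was 39.4% for H2-Eb1, 14.9% for H2-Aa and 18.2% over all genes. H2-Eb1 was thus below all genes in the CDS and above them in the 3′UTR on this measure, which still rests on the sites called in replicate 1. The part of site calling in these shares was not tested.

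The other genes had lower counts outside the 3′UTR in replicate 1, but not always lower shares. The 3′UTR held 80.5% of the cDNAs of H2-Eb1 and 83.7% of those of H2-Aa in that replicate. It held 78.0% for H2-Ab1, 81.5% for Cd74, 75.4% for H2-DMb2, 86.9% for H2-Ob and 0 of 7 for H2-DMa. Cd74 had 33 in the CDS, 49 in introns (10.4%) and 5 in the 5′UTR in replicate 1, and no called site in these parts in replicate 2. At the nucleotides of replicate 1 the pooled list added 4 intron cDNAs and 1 in the 5′UTR for Cd74, and 3 intron cDNAs for H2-Ab1. H2-Ab1 had 12 and 0 in the CDS, 23 and 0 in introns and 18 and 4 in non-coding exons. H2-Ob had 0 in the CDS, 31 and 3 in non-coding exons and 15 and 4 in introns. In H2-DMb2 the CDS held 11 and 3, in H2-DMa 6 and 0, and Ciita had cDNAs in the 3′UTR alone.

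**Figure D3:**
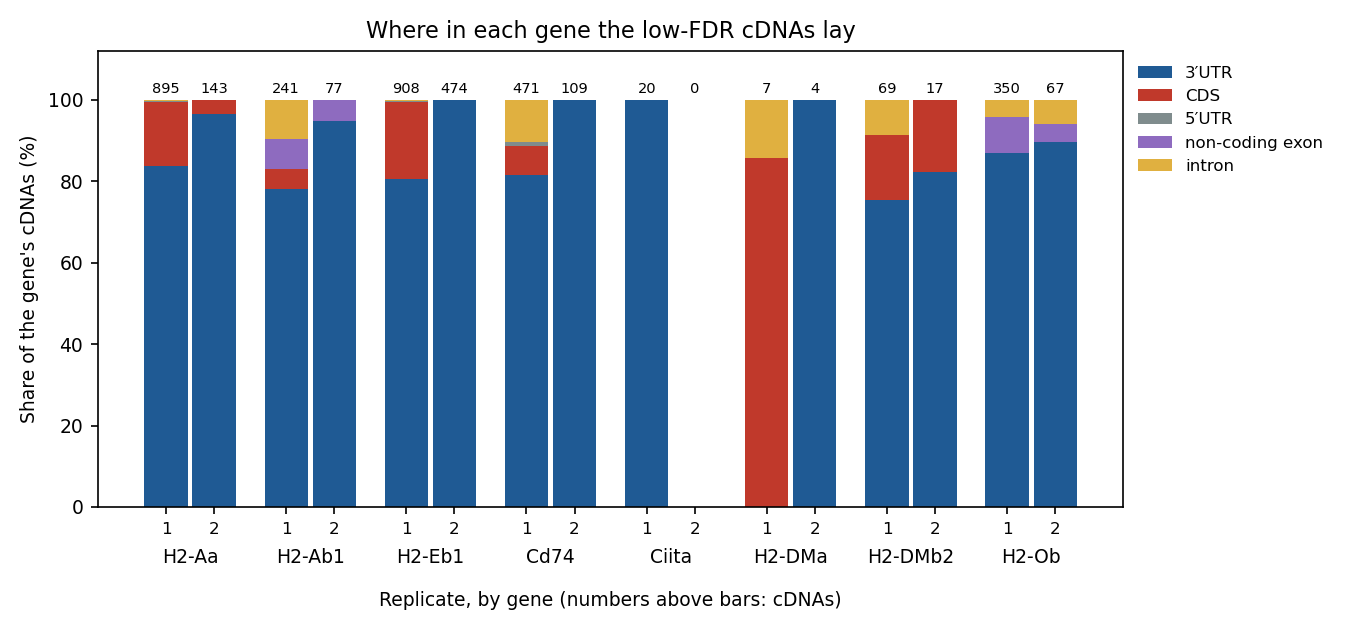
Share of each gene's low-FDR cDNAs (percent, vertical axis) in the 3′UTR, CDS, 5′UTR, non-coding exons and introns, for replicates 1 and 2 of each gene, with the number of cDNAs above each bar. The CDS part of H2-Eb1 is 18.8% of 908 cDNAs in replicate 1 and 0 of 474 in replicate 2.

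The fourth question was whether the libraries supplied each gene's 3′UTR cDNAs in the same proportion. Replicate 2 supplied 21.1% of the 3′UTR cDNAs of all genes. H2-Eb1 drew 39.3% from replicate 2 (exact 95% interval 36.6 to 42.2, odds ratio 2.44 against all other genes). This share was higher than that of the other genes (Fisher's exact test, two-sided, adjusted over 3937 genes by the Benjamini-Hochberg method, p = 2.60e-44). H2-Ab1 was higher as well, at 28.0% (22.6 to 33.8, adjusted p = 0.0442, Fisher's exact test). H2-Aa was lower, at 15.6% (13.2 to 18.1, adjusted p = 0.000784, Fisher's exact test).

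Of the 7 members with at least 20 cDNAs, 3 were thus called, against 18.9% of the 3937 genes tested. By direction, 2 were higher, against 6.99%, and 1 was lower, against 11.9%. Cd74 (22.1%, adjusted exact p = 0.803), H2-DMb2 (21.2%, adjusted exact p = 1), H2-Ob (16.5%, adjusted exact p = 0.120) and Ciita (0% of 20, adjusted exact p = 0.0607) did not pass the threshold. H2-DMa had 4 cDNAs and was not tested. These tests set 1 library against another and cover counting error, not a condition. A gene with more cDNAs is also called more easily. The members had a median of 323.5 pooled 3′UTR cDNAs, against 28 over all 7299 genes with any. With a minimum of 50 cDNAs, 3 of 6 members were called, against 21.7% of 2528 genes. The difference in counts was not corrected for.

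The call of H2-Eb1 held in all 7 alternatives run, that of H2-Aa was lost in 1 and that of H2-Ab1 in 4. At the nucleotides of replicate 1 with the count of replicate 2 taken from the pooled list, H2-Aa drew 14.9% against 18.2% for all genes (adjusted p = 0.0695, Fisher's exact test). At sites with at least 2 cDNAs H2-Ab1 drew 30.4% against 24.0% (adjusted p = 0.147, Fisher's exact test).

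**Figure D4:**
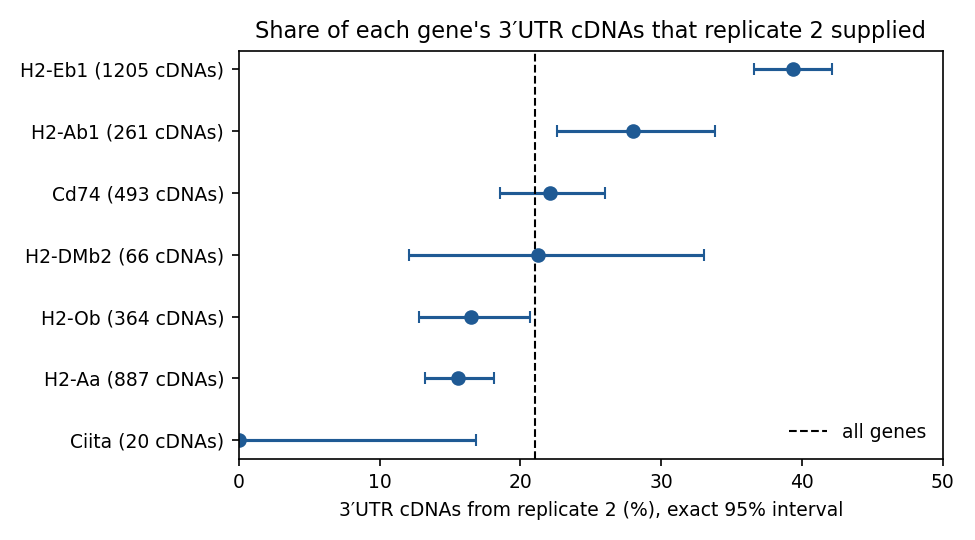
Percent of each gene's 3′UTR cDNAs that came from replicate 2 (horizontal axis) with exact 95% intervals, for the 7 class II genes with at least 20 cDNAs over both replicates, and the value of all genes, 21.1%, as a dashed line. The intervals of H2-Eb1 and H2-Ab1 lie above the line, those of H2-Aa, H2-Ob and Ciita below it, and those of Cd74 and H2-DMb2 across it.

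Most sites of replicate 2 on these 3′UTRs lay at nucleotides that were also sites of replicate 1. Of the 222 sites of replicate 2 on the 8 genes, 188 (84.7%, exact 95% interval 79.3 to 89.2) were also sites of replicate 1, against 64.6% over all genes. All 49 sites of H2-Eb1 were shared, 51 of 57 of H2-Aa, 18 of 21 of H2-Ab1, 33 of 39 of Cd74 and 31 of 42 of H2-Ob. The share was lower where counts were low, at 6 of 12 for H2-DMb2 and 0 of 2 for H2-DMa. In the reverse direction 28.4% of the sites of replicate 1 were also called in the shallower replicate 2, against 18.8% over all genes. The difference in counts per site between the members and all genes was not corrected for. Replicate 1 also had sites at 82 of the 94 nt of the H2-Eb1 cluster and at 132 of the 185 nt of the H2-Aa cluster. How much overlap such dense coverage gives by itself was not tested.

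The fifth question was how U-rich the bound sequence was beside the rest of the same 3′UTR. The 31 nt around a site, weighted by cDNAs, held 45.4% U in replicate 1 and 48.9% in replicate 2 for H2-Eb1, against 24.8% over all positions of its 3′UTR. UUUUU lay in the windows around 63.3% of its pooled cDNAs, against those of 4.59% of all positions in its 785 nt of annotated 3′UTR. These 785 nt include sequence that had no low-FDR crosslink. All 1208 pooled cDNAs lay in the 310 nt form, which was 28.7% U and held every UUUUU counted above, so both contrasts would be smaller within it. H2-Ob held 45.7% and 48.3% around sites against 34.4%, with UUUUU around 35.4% of its pooled cDNAs against 9.23% of positions. These genes had the largest differences, 21.9 and 11.3 percentage points in the pooled list.

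Cd74 held 30.4% and 33.8% U around sites against 21.3%, and H2-Aa 41.1% and 42.5% against 33.5%. UUUUU was in none of the site windows of either gene, whose 3′UTRs in the transcripts with most cDNAs lack it. The differences were small for H2-DMb2, which stood 1.41 and 6.89 points above its 3′UTR, and for H2-Ab1, with 31.8% and 32.2% against 29.9%. In H2-DMb2, UUUUU lay around 5.88% of the pooled cDNAs, against 10.2% of positions. The value was 1.92% in replicate 1 and 21.4% of 14 cDNAs in replicate 2. Ciita had 32.3% in replicate 1 against 25.6%. U content around sites was thus above that of the 3′UTR in every library with sites for the 7 genes with at least 10 cDNAs, but by amounts that ranged from 2.06 points for H2-Ab1 to 21.9 for H2-Eb1 in the pooled list. With each site counted once, the mean difference over the 6 genes seen in both replicates fell from 9.19 to 5.74 points.

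The crosslinked nucleotide itself was U for 81.3% of the pooled cDNAs of H2-Ob, 81.0% of H2-Eb1, 76.0% of H2-Ab1, 75.1% of H2-Aa, 69.5% of Cd74 and 57.7% of Ciita. In the CDS it was U for 43.2% of the cDNAs of H2-Eb1 and 61.4% of those of H2-Aa, and the 31 nt around CDS sites held 25.0% and 28.9% U. Crosslinking by UV light favours U by itself, and its part in these shares was not tested.

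**Figure D5:**
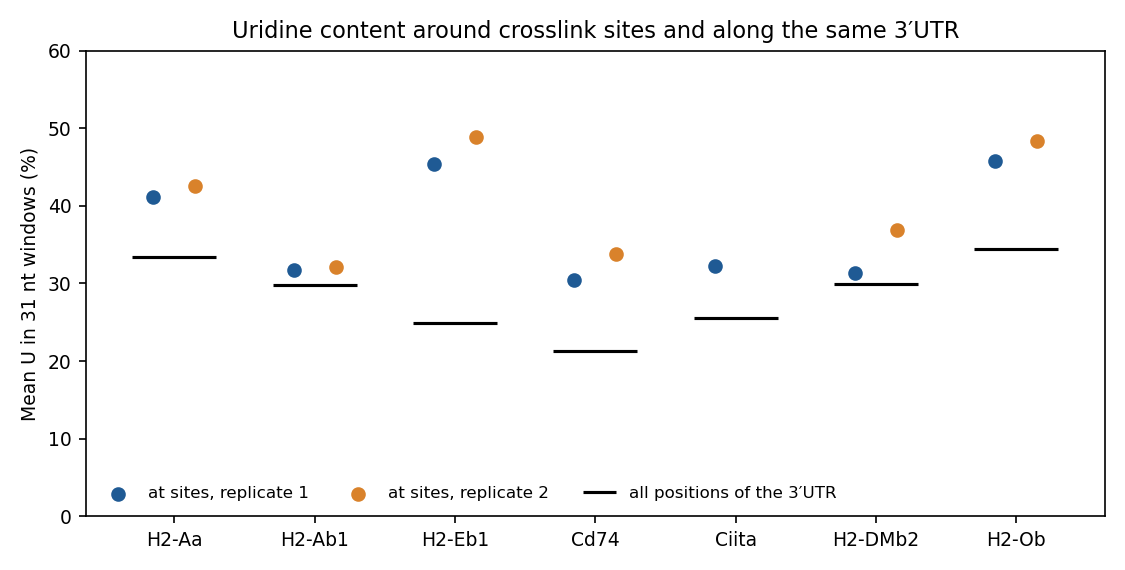
Mean U content (percent) of the 31 nt around 3′UTR crosslink sites in replicate 1 (blue) and replicate 2 (orange), weighted by cDNAs, with the mean over all positions of the same 3′UTR as a line, for the 7 class II genes with at least 10 cDNAs. Replicate 2 of Ciita had no site. H2-Eb1 lies at 45.4% and 48.9% over a line at 24.8%, and H2-Ab1 at 31.8% and 32.2% over a line at 29.9%.

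Beyond the 8 genes, 22 others of the pathway were examined, of which 13 had 3′UTR cDNAs in the pooled list and 11 in both replicates. Among further class II chains, H2-Eb2 had 32 and 9, while H2-DMb1, H2-Oa and the defective H2-Ea had no low-FDR cDNA in any part of the gene. H2-Ob thus had sites in both replicates while the gene of its partner chain, H2-Oa, had none. H2-DMb1 and H2-DMb2 are close copies. In H2-DMb2 70.4% of the 3′UTR positions and 43.7% of the CDS positions had a 31 nt sequence found once in the genome. Of its pooled 3′UTR cDNAs, 95.6% lay at such positions, and counts for this pair of genes are uncertain.

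Transcripts of the factors that bind class II promoters together with Ciita had uneven counts of crosslinks. Creb1 had 391 and 87 3′UTR cDNAs, Nfyb 185 and 34, Nfya 182 and 47, Rfx5 65 and 13 and Rfxap 6 and 0. Rfxank and Nfyc had 0 in the 3′UTR. Per kb of 3′UTR the pooled counts were 140 for Nfyb, 100.5 for Nfya, 67.2 for Creb1 and 34.7 for Rfx5, against 6.46 for Ciita itself and 4.43 for Rfxap.

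Among proteases and lysosomal factors, cathepsin S (Ctss), which trims the invariant chain, had 263 and 82 3′UTR cDNAs and reached 257 per kb and 100000 3′UTR cDNAs, between H2-Eb1 and Cd74 in the mean. Sppl2a, a protease that removes the last fragment of the invariant chain from the membrane, had 291 and 49. Lgmn had 113 and 32, Ctsb 72 and 24, the protease inhibitor Cst3 5 and 0, and Ctsl and Ctsd 0. The thiol reductase gene Ifi30 had 86 and 14 cDNAs over all parts of the gene, but 0 at 3′UTR sites assigned to it alone. Whether they lay in a 3′UTR shared with another gene was not examined. For turnover at the surface, Cd83, which opposes the removal of class II by the ubiquitin ligase March1, had 310 and 114, March1 itself 13 and 2, and March8 0.

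The share of replicate 2 was tested for 10 of these genes and called for 2, against 18.9% of all genes tested. It was lower for Sppl2a (14.4%, adjusted p = 0.0176, Fisher's exact test) and higher for Cd83 (26.9%, adjusted p = 0.0282, Fisher's exact test). For 10 genes of the class I pathway, whose molecules present peptides from the cytosol, the median was 249 pooled 3′UTR cDNAs per kb. B2m, the class I light chain, had 3546 and 1439 cDNAs and stood at 1978 on the scaled measure per kb, above every class II gene. The share of replicate 2 was higher for B2m (28.9%, adjusted p = 2.53e-36, Fisher's exact test). It was also higher for Tapbp (26.5%, adjusted p = 0.0368, Fisher's exact test), and no other class I gene tested was called. The class I heavy chain H2-K1 had 215 and 58. Nlrc5, the class I counterpart of Ciita, had 14 and 0 cDNAs.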

How the data were processed

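Tia1 iCLIP was analysed in 2 samples of 1 group, independent experiments according to the study. Per the methods, the authors collapsed PCR duplicates with random barcode bases, mapped reads with Bowtie (of a version not given in the sources) to mm9 with Ensembl release 59 in the iCount pipeline, and called sites in each replicate and in their sum. Each deposited value is the unscaled count of unique cDNAs at 1 nucleotide, with a minus sign on the minus strand. Per the file headers, sites passed an FDR of 0.05 from 100 permutations with a 15 nt neighbourhood. The authors lifted the pooled list to mm10 (GRCm38). The handling of reads with several matches is likewise not stated.

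Replicate sites took their GRCm38 position from the same nucleotide of the pooled list, which covered 98.9% and 99.1% of the cDNAs. The pooled count was the sum of both replicates wherever both had a site (58002 nucleotides). Sites were annotated with GENCODE release M21 on their strand, with CDS placed before 3′UTR, then 5′UTR, exons of non-coding transcripts and introns. Levels used the union of a gene's annotated 3′UTRs. The 3′UTR counts of a gene left out sites in a 3′UTR shared with another gene. The share of replicate 2 was tested for all genes with at least 20 3′UTR cDNAs by Fisher's exact test, two-sided, with p adjusted by the Benjamini-Hochberg method and a threshold of 0.05. No test over samples could be made with 1 group. On simulated counts for 3937 genes, with 200 changed 2-fold in odds, 37 of 100 raised and 23 of 100 lowered genes were recovered with 0 false calls. A gene not called may thus still differ. The simulated counts had counting error alone and no further spread between libraries. The 0 false calls therefore do not show how reliable the calls in these 2 libraries are. Shares have exact (Clopper-Pearson) 95% intervals that cover counting error only. U content was taken in 31 nt windows, for genes with at least 10 cDNAs, and uniqueness from 31 nt words of the whole genome.

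The genes named were the 8 members, with their 2 strongest clusters and strongest site, and every gene of the lists of 22 pathway genes, with class I genes for comparison and cell type markers. Members and lists were chosen with earlier results of these data known. Alternatives changed the sites admitted, the order of features, the source of counts, the 3′UTR length, the FDR filter, the genes tested, the overlap, the window, the weight and the gap that joins sites, and left out each replicate. No column of per-sample values was left unmapped (0). The tools were scipy 1.17.1, pandas 2.3.3, numpy 2.4.6 and matplotlib 3.10.9 under Python 3.11.15.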

Additional observations from a re-analysis of the deposited data

How the results depend on the processing

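No paired analysis was possible because the series holds a single group. The share of cDNAs in the 3′UTR (84.2% in the pooled list) was 98.3% at sites with at least 5 cDNAs and 82.0% to 97.9% when a replicate was left out. The log2 ratio per kb of H2-Aa over H2-Ab1 (1.81) ranged from 0.97 to 2.05 and that over Cd74 (1.52) from 1.04 to 1.67 when a replicate was left out. That of H2-Aa over H2-Eb1 (0.93) turned to -0.17 without the FDR filter and to -0.31 with the 3′UTR of the transcript with most cDNAs, a length chosen after seeing the data, and ranged from -0.41 to 1.41 when a replicate was left out. The genes whose replicate 2 share differed (744 of 3937) numbered 297 at sites with at least 2 cDNAs, 103 at sites with at least 5 and 43 at sites called in both replicates, settings that admit fewer cDNAs and genes by construction. The share of Cd74 lay below that of all genes under these settings, at 23.95% against 24.04%, 25.8% against 28.1% and 30.2% against 34.9%. At sites called in both, H2-DMb2 had 26.9% and H2-Ob 36.3%, against 34.9% for all genes. H2-DMb2 had 11.9% at the nucleotides of replicate 1, with replicate 2 taken from the pooled list, a setting also chosen after seeing the data. The agreement of sites (84.7%) rose to 99.1% within 15 nt, 95.4% at sites with at least 2 cDNAs and 100% at sites of replicate 2 with at least 3 cDNAs, which was added later as well. Where replicate 1 has dense sites, a match within 15 nt is nearly given. The mean U difference (9.19 points) was 12.04 in 21 nt windows, 5.74 with each site counted once and 8.68 to 11.5 when a replicate was left out. The share in the strongest cluster (82.9%) was 85.5% with sites joined within 30 nt, 72.9% at sites with at least 2 cDNAs and 81.1% to 83.0% when a replicate was left out. Another 40 alternative values of these measures kept their direction and moved by less than the spread between replicates, or, for counts of genes, by at most 1.5 times, as where the members called fell from 3 to 2 in 4 settings. Depth limits replicate 2, with 891 cDNAs on the 8 genes against 2961 in replicate 1, and the counts of Ciita and H2-DMa in both.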

Other observations

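The FDR filter took little from the members with the most crosslinks per kb. Between the outermost low-FDR 3′UTR sites of each gene, the filtered list kept all 889 cDNAs of H2-Aa, 99.02% of 1220 in H2-Eb1, 97.5% of 518 in Cd74 and 96.7% of 272 in H2-Ab1. It kept 94.4% of 72 in H2-DMb2, 87.1% of 441 in H2-Ob and 81.3% of 32 in Ciita, but all 6 in H2-DMa. Over the whole unfiltered map 54.8% of the cDNAs lay at pooled low-FDR sites. These spans were set by the filtered sites, so the shares are descriptions.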
